A study of Mus musculus with 6 samples.

Results

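The Rhox genes are a cluster of homeobox genes on the mouse X chromosome that are read mainly in reproductive tissues, and their levels were followed in testes with and without Stra8. The genes were chosen by name: the rule lists Rhox1, Rhox5, Rhox8, Rhox10, Rhox11 and Rhox13, and 5 of these 6 symbols have a row in all 6 count files, out of 21786 symbols shared by the files. Rhox5 has no row under that symbol and is not analysed here. All 5 passed the filter on low counts. Poly(A) RNA of whole testes from C57BL/6 males was sequenced, giving 3 libraries of Stra8 -/- males, 1 year old and with grossly enlarged testes, and 3 of Stra8 +/+ males with normal testes, 2 to 4 months old. Stra8, a gene induced by retinoic acid, is required for meiotic entry, and per the labels the enlarged testis is made up mostly of cells like type A spermatogonia. Age and testis enlargement go with genotype and cannot be told apart from it.

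Homeobox genes encode transcription factors that bind DNA through a homeodomain. The Rhox cluster arose by repeated duplication, and its members divide their work between cell types of the gonad and the placenta. Rhox10 acts in germ cells and is needed for a full pool of spermatogonial stem cells, Rhox13 is a germ cell gene of the stages around the start of meiosis whose translation is raised by retinoic acid, and Rhox8 is a gene of Sertoli cells, the nursing cells of the tubule, that responds to androgen. Cluster genes are known to be silenced by DNA methylation in cells that do not use them.

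The stretches of DNA upstream of the starts of 4 of the genes are shown because the genes differ in direction while lying in 1 cluster, Rhox10 next to Rhox11. Each is the 250 bases before the RefSeq start (build GRCm38.p6, 5′ to 3′ on the gene's strand; the counts were made on mm9), with every CG dinucleotide and every match to a motif in capitals. Rhox1 lies at chrX:37222259-37222508 (minus strand), Rhox10 at chrX:38066225-38066474 (plus strand), Rhox13 at chrX:38120590-38120839 (plus strand) and Rhox11 at chrX:38085140-38085389 (minus strand).
Rhox1: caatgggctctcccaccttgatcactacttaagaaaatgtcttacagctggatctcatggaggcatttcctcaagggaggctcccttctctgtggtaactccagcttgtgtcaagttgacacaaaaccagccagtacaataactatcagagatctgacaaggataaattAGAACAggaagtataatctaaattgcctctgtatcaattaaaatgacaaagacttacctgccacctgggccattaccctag
Rhox10: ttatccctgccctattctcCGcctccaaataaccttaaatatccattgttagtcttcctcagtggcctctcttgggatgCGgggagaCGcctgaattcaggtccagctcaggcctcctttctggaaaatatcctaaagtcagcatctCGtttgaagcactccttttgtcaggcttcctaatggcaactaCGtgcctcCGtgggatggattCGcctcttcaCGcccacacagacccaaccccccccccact
Rhox13: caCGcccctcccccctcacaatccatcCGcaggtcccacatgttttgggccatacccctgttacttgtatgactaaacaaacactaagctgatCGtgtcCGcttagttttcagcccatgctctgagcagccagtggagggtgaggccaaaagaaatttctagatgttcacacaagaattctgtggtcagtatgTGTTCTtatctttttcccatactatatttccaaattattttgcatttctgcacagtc
Rhox11: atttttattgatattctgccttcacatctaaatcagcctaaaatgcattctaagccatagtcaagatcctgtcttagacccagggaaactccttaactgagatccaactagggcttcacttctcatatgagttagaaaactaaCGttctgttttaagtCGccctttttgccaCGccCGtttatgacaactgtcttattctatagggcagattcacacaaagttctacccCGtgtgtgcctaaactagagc
No entry for Rhox8 was used. The Rhox10 stretch holds 8 CG dinucleotides, Rhox11 5, Rhox13 4 and Rhox1 0, beside a median of 6 over 32851 promoters of the same length, of which 7.87% hold 0. The motif AGAACA, a core of the androgen response element, was searched on both strands together with the ETS motif CCGGAAG and the GC box GGGCGG. The androgen motif has 1 match in Rhox1 and 1, on the opposite strand, in Rhox13, and 16.1% of all such promoters hold it. The ETS motif and the GC box, found in 6.91% and 32.7% of promoters, have no match in these 4 windows. Both of these contain a CG; the androgen motif does not, and its matches overlap no other capitals. Such matches describe the letters only.

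The libraries held 6733128 to 12425689 reads in genes. Levels are given as CPM, the usual scale of counts relative to library depth, with each library also scaled by its TMM factor, which allows for libraries that differ in composition. Log2 fold changes set Stra8-deficient against wild-type testes and come from edgeR's quasi-likelihood test with p-values adjusted by Benjamini-Hochberg over 15018 genes. The approximate standard error (SE) is derived from the test's F statistic. Stra8 itself stood at 21.2, 23.7 and 18.1 CPM in the Stra8-deficient and 18.7, 18.6 and 17.0 CPM in the wild-type libraries (log2 fold change 0.21 ± 0.21; edgeR, adjusted p = 0.384). Which part of the allele was altered is not stated, so the read count of Stra8 does not check the labels. The labels describe separate males, so p-values rest on the spread between 3 and 3 testes.

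Rhox10, Rhox13 and Rhox1 rose in the Stra8-deficient testes and Rhox8 and Rhox11 fell. All 5 genes therefore passed the test, in a comparison where 75.8% of genes did (39% higher and 36.7% lower), and the 3 and 3 libraries did not overlap in any of them, as in 80.2% of genes tested. Of the calls 51.5% were higher, against 63.6% when only library size was used and 85.3% when libraries were scaled to the Sertoli marker list. The median log2 fold change of the 5 Rhox genes was 2.74, beside 0.11 over all genes. With 3 genes higher and 2 lower this median is the value of Rhox13 and describes no shift shared by the family. Of 535 X-linked genes tested outside the family, 80% passed the test (53.3% higher and 26.7% lower), with a median of 0.96. A larger absolute log2 fold change than that of Rhox10 was found in 6.23% of all genes tested, than Rhox11 in 7.51%, than Rhox1 in 8.68%, than Rhox8 in 20.6% and than Rhox13 in 27.5%.

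**Figure D1:**
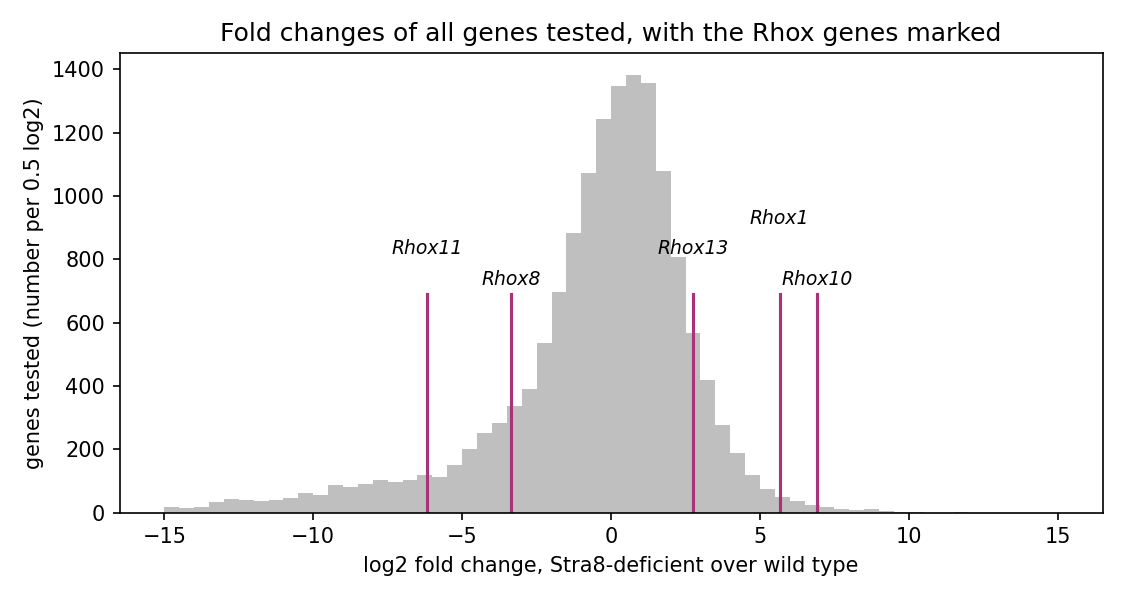
Number of genes tested by log2 fold change, Stra8-deficient over wild type, in bins of 0.5 log2; values beyond 15 in either direction are drawn in the outermost bin. Vertical lines mark the 5 Rhox genes: Rhox10 (6.92) and Rhox1 (5.66) lie in the upper tail, and Rhox11 (-6.19) and Rhox8 (-3.37) below 0.

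Rhox10, the germ cell factor, had the highest level of the 5 without Stra8. It was read 416, 603 and 1189 times in the Stra8-deficient libraries but only 2, 3 and 4 times in wild type. After scaling, the Stra8-deficient levels were 41.7, 57.4 and 79.5 CPM and the wild-type levels 0.312, 0.423 and 0.733 CPM. Every Stra8-deficient library lay far above every wild-type library, and the third was the highest of its group. The means were 59.5 ± 19.0 and 0.489 ± 0.218 CPM (SD, n = 3 each), and the log2 fold change was 6.92 ± 0.41 (SE; edgeR, adjusted p = 6.10e-07). Because the wild-type libraries hold 9 reads in all, the ratio of the summed reads, 131, carries a 95% exact counting interval of 69.0 to 287.5.

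Rhox13, the germ cell gene with retinoic-acid-dependent translation, rose less and more evenly. Its level was 40.5, 33.2 and 41.4 CPM without Stra8 and 6.55, 4.65 and 6.04 CPM in wild type. It was the one gene of the 5 with a substantial level in both genotypes, and within each genotype the libraries were close together. The means were 38.4 ± 4.49 and 5.75 ± 0.982 CPM (SD, n = 3 each), with a log2 fold change of 2.74 ± 0.24 (SE; edgeR, adjusted p = 6.81e-06). In RefSeq the span of Rhox13 overlaps that of the lncRNA gene Gm39506. Whether their exons overlap was not checked, and strand handling is not given in the sources used here. It is therefore not known whether any reads of the pair were mixed.

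Rhox1, at the proximal end of the cluster, was nearly unread in normal testis. Its reads numbered 206, 124 and 256 without Stra8 and 2, 3 and 1 in wild type. The levels were 20.6, 11.8 and 17.1 CPM against 0.312, 0.423 and 0.183 CPM, with the second Stra8-deficient library the lowest of its group and still far above wild type. The log2 fold change was 5.66 ± 0.45 (SE; edgeR, adjusted p = 3.92e-06), and the ratio of summed reads was 52.3 with a 95% counting interval of 23.9 to 143.

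Rhox8, the androgen-responsive Sertoli cell gene, was the most abundant of the 5 in normal testis and fell. It was read 102, 111 and 118 times in wild type and 9, 0 and 59 times without Stra8. Wild-type levels were thus 15.9, 15.7 and 21.6 CPM, and Stra8-deficient levels 0.902, 0 and 3.95 CPM. The Stra8-deficient libraries differed widely among themselves. The count of 0 in the second library allows up to 0.285 CPM (3 counts), while the third stood at 3.95 CPM. The log2 fold change was -3.37 ± 0.92 (SE; edgeR, adjusted p = 0.00966). The value was -5.28 without the third Stra8-deficient library and -1.68 after scaling to the Sertoli marker list, and the call held in both. The span of Rhox8 overlaps that of the pseudogene Rhox7b in RefSeq.

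Other Sertoli cell markers moved with Rhox8 across the Stra8-deficient libraries. The list of 31 Sertoli markers in the files held 0.0792%, 0.0399% and 0.176% of the gene reads in Stra8-deficient replicates 1, 2 and 3, the same order as for Rhox8, and 0.276% to 0.306% in the wild-type libraries. Of 30 markers tested 25 were lower, 0 higher and 5 not called (median log2 fold change -3.54), against 13 lower and 3 higher when libraries were scaled to this same list. Among the lower ones were Cst9, a cystatin of Sertoli cells (-6.55 ± 0.74), and Tsx, an X-linked Sertoli cell gene (-5.12 ± 0.61). No marker was at 0 in all Stra8-deficient libraries. In bulk tissue, fewer cells of a type and less RNA per cell cannot be told apart. Set against the summed reads of that list, which does not depend on library scaling, Rhox8 had 1.45, 0 and 2.72 reads per 1000 list reads without Stra8 and 4.23, 4.44 and 6.38 in wild type. The means were 1.39 ± 1.36 and 5.02 ± 1.18 (SD, n = 3 each; exact two-sided permutation p = 0.1, the smallest that 3 against 3 can give). The log2 ratio, -1.85, was -2.79 without Stra8-deficient replicate 3 and -1.27 without replicate 2. With the median over list genes in place of the sum it was -1.26, and the exact two-sided permutation p was 0.3. The markers of Leydig cells, the androgen-producing cells between the tubules, also varied, from 0.00226% to 0.339% of reads in the Stra8-deficient libraries against 0.0636% to 0.106% in wild type, lowest in the second and highest in the third Stra8-deficient library. The part of either cell type in the level of Rhox8 was not tested.

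Rhox11 was low in normal testis and all but absent from the Stra8-deficient libraries. It had 15, 28 and 15 reads in wild type, and 0, 0 and 1 without Stra8. The wild-type levels were 2.34, 3.95 and 2.75 CPM. The ratio of summed reads, wild type over Stra8-deficient, was 108 with a 95% counting interval of 18.7 to 4353. The fitted log2 fold change was -6.19 ± 0.70 (SE; edgeR, adjusted p = 3.94e-05), and -7.59 without the third Stra8-deficient library, which holds the single read. The authors' deposited table gives log2 fold changes of 6.96 for Rhox10, 5.71 for Rhox1, 2.74 for Rhox13, -3.40 for Rhox8 and -6.76 for Rhox11. Rhox11 lies beside Rhox10 in the cluster, and these neighbours went in opposite directions.

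**Figure D2:**
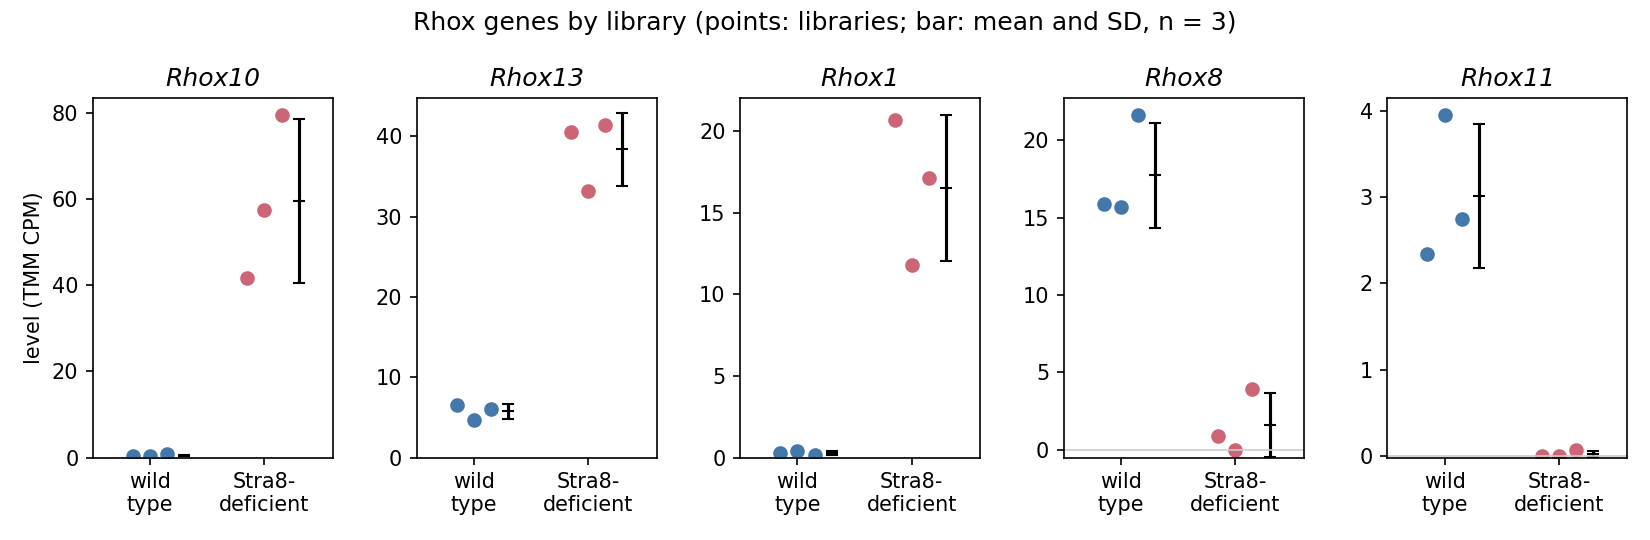
Level of each Rhox gene in TMM-scaled CPM in the 3 wild-type and 3 Stra8-deficient libraries; points are libraries (left to right, replicate 1 to 3), and the bar beside them is the mean with its SD; each panel has its own linear axis. Rhox10, Rhox13 and Rhox1 are higher and Rhox8 and Rhox11 lower in every Stra8-deficient library, with no overlap between genotypes.

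Per kilobase of exon (GENCODE M21 lengths), the order of levels turned over. In wild-type testes Rhox8 led with 14.7 ± 2.80 CPM per kb, followed by Rhox13 (6.56 ± 1.12), Rhox11 (3.71 ± 1.03), Rhox10 (0.641 ± 0.286) and Rhox1 (0.347 ± 0.136; SD, n = 3 each). The libraries of Rhox10 and Rhox1 overlapped there, while the first 3 genes did not overlap. In Stra8-deficient testes Rhox10 led with 78.0 ± 24.9 CPM per kb, followed by Rhox13 (43.8 ± 5.13), Rhox1 (18.7 ± 5.05), Rhox8 (1.34 ± 1.72) and Rhox11 (0.0275 ± 0.0476; SD, n = 3 each). Here each gene's lowest library stayed above the next gene's highest except between Rhox8 and Rhox11.

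The make-up of the Rhox reads, which needs no library scaling, also differed between the genotypes. Shares of 1 total depend on each other, so a rise of some genes by itself lowers the shares of the rest. All Rhox reads together stood at 104.7 to 144.9 CPM in the Stra8-deficient and 25.1 to 31.5 CPM in the wild-type libraries. Wild-type libraries held 163 to 178 reads over all Rhox symbols analysed, and Stra8-deficient libraries 1072 to 2167. Rhox8 made up 62.4% to 68.6% of these reads in the wild-type libraries and 0% to 2.72% in the Stra8-deficient libraries. Rhox10 made up 1.23% to 2.33% in wild type and 38.8% to 54.9% without Stra8, and Rhox1 0.581% to 1.69% and 11.3% to 19.2%. The share of Rhox13 was 18.5% to 25.8% in wild type and 28.6% to 37.7% in Stra8-deficient libraries, and that of Rhox11 8.72% to 15.7% and 0% to 0.0462%. Rhox5 is outside these sums.

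**Figure D3:**
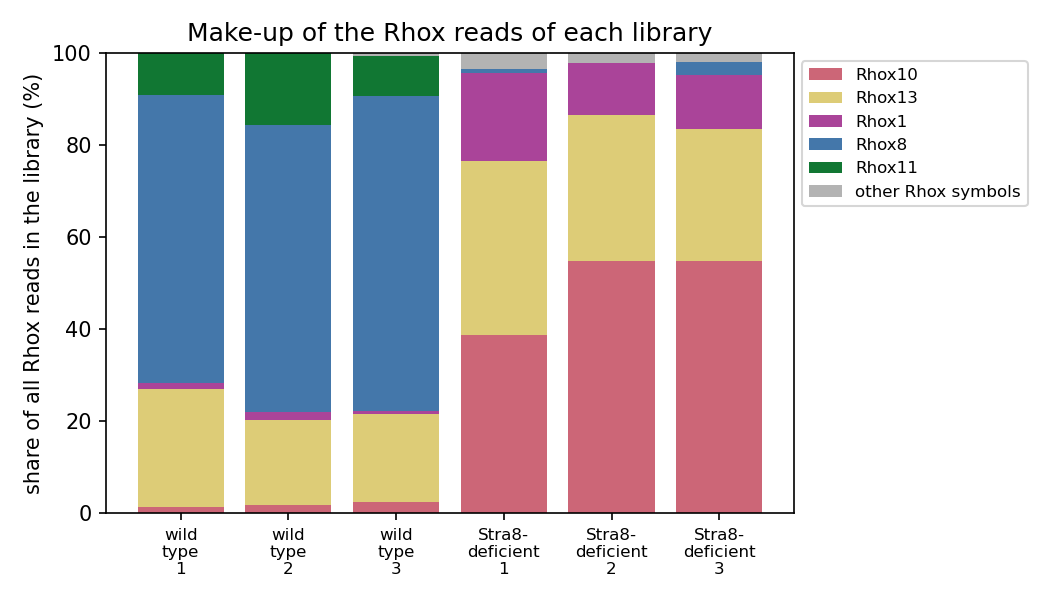
Share of each Rhox gene among all Rhox reads analysed in each library, in percent; each bar is 1 library. Rhox8 takes 62.4% to 68.6% of the wild-type bars, and Rhox10 38.8% to 54.9% of the Stra8-deficient bars.

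The germ cell members were also set against markers of the cells that fill the Stra8-deficient testis. Of 23 tested markers of undifferentiated spermatogonia 20 were higher and 3 lower (median log2 fold change 4.22). The higher ones included Pax7, a paired-box factor with 545 reads against 0, and Nanos3, an RNA-binding germ cell factor (7.45 ± 0.24). The lower ones included the homeobox gene Lhx1 (-3.42 ± 0.47) and Id4, an inhibitor of bHLH factors (-2.76 ± 0.21). On the Sertoli-list scale 20 were higher and 0 lower, with Lhx1 at -0.69 and Id4 at -0.18. The 24 listed genes took 0.251% to 0.471% of the Stra8-deficient reads and 0.0184% to 0.01995% of the wild-type reads. Their most-read genes in wild type were Taf4b (893 reads), Id4 (843) and Ddit4 (588). Lin28a held 12.25% of the list reads without Stra8 and 3.41% in wild type. The list thus differed in make-up between genotypes, and a ratio to it is not a level per spermatogonium. Rhox10 had 11.3, 26.2 and 38.4 reads per 1000 reads of that list without Stra8 and 1.27, 1.78 and 3.24 in wild type. The groups did not overlap, with means of 25.3 ± 13.6 and 2.10 ± 1.02 (SD, n = 3 each; exact two-sided permutation p = 0.1, the smallest that this design can give). Rhox13 had 10.9, 15.2 and 19.98 reads per 1000 list reads without Stra8 and 26.7, 19.6 and 26.8 in wild type, and these overlapped (means 15.4 ± 4.53 and 24.4 ± 4.13; exact two-sided permutation p = 0.2). With the median over list genes in place of the sum, the log2 ratio of Rhox13 went from -0.66 to -1.14 (exact two-sided permutation p = 0.1).

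Other cell types also differed between the genotypes. Of 8 markers of differentiating spermatogonia 7 were higher and 1 lower (median log2 fold change 4.12), led by the cyclin gene Ccnd2 (6.67 ± 0.29) and Crabp1 (4.77 ± 0.25), with Dmrtb1, which controls the entry into meiosis, lower (-8.64 ± 0.36). Of 18 genes of spermatocytes and spermatids 0 were higher and 17 lower (median -11.8), such as Spata3 with 0 reads against 9708 and the protamine gene Prm2 with 9 against 168512. Sycp1 was not called (-0.03 ± 0.19). Sycp3 was only slightly lower (-0.39 ± 0.16), and it lost its call when only library size or the upper quartile set the scale. For this list 1 was higher and 16 lower with library size only, and 2 higher and 14 lower on the Sertoli-list scale. The 11 macrophage markers took 0.0497% to 0.206% of the Stra8-deficient reads and 0.00917% to 0.0102% of the wild-type reads, with 9 higher and 0 lower, led by Lyz2 (5.12 ± 0.58) and Cd68 (4.74 ± 0.53). Of 10 peritubular and vascular markers 4 were higher, led by Des (3.79 ± 0.31) and Pecam1 (3.50 ± 0.34), and 1, Cnn1, was lower (-1.31 ± 0.54), a call lost when only library size was used, with 0.88 on the Sertoli-list scale. The count was 6 higher and 0 lower when only library size was used, and 9 higher and 0 lower on the Sertoli-list scale. The 12 epididymis genes, a check for attached tissue, took at most 5.67e-04% of the Stra8-deficient reads and 0.0181% to 0.0216% of the wild-type reads. Of these genes 7 were at 0 in each genotype, in wild type Lcn5, Lcn8, Lcn9, Defb1, Crisp1, Adam7 and Spint4. The other 3, which were tested and lower, were Cst8 (75 reads against 4442), Rnase10 (0 against 169) and Ros1 (0 against 49), apart from a few reads of Crisp4 and Defb41. The wild-type share was thus mostly that of Cst8. The part of these cells in the Rhox levels was not tested.

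Of 14 genes known to act on Rhox transcription, 9 were higher, 2 lower and 3 not called (median log2 fold change 1.26), where 75.8% of all genes were called. The ETS factor genes Ets1 (3.86 ± 0.33) and Ets2 (2.95 ± 0.37) rose, as did Gabpa (1.06 ± 0.22), while Elf1 was lower (-0.66 ± 0.23). Elf1 lost its call when only library size or the upper quartile set the scale, and stood at 2.01 on the Sertoli-list scale. The DNA methyltransferase genes Dnmt3b (3.23 ± 0.37), Dnmt3a (2.54 ± 0.17) and Dnmt1 (1.57 ± 0.24) and their cofactor gene Dnmt3l (1.88 ± 0.26) were higher too. Sp3 (1.45 ± 0.25) and Sp1 (0.50 ± 0.18), general GC-box factors, were higher, Sp1 not with RLE factors. Gabpb1, Ehmt2 and Uhrf1 were not called. Under the other scalings 8 to 13 of the 14 were called higher and 0 to 2 lower.

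Genes reported downstream of Rhox factors went both ways. Dmrt1 and Zbtb16, transcription factors placed downstream of Rhox10 in spermatogonia, rose by 3.85 ± 0.35 and 4.66 ± 0.32; both are also spermatogonial genes, and Zbtb16 is in the list above. Adipoq, which encodes adiponectin and has been placed downstream of Rhox5, fell by 5.89 ± 0.48. Gdap1 and Cdkn1a were not called, and Unc5c, Ins2 and Retn were read too little to be tested.

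Of the remaining 27 Rhox symbols, 19 had 0 reads in all libraries, 6 had 1 to 9 reads and 2 had 10 or more. Those 2 were Rhox9 and Rhox6, a pair of close paralogs first described in placenta. Rhox9 had 16, 11 and 26 reads without Stra8 and 0 in every wild-type library, at least 9.46-fold higher against a floor of 3 counts over the wild-type group (edgeR, adjusted p = 6.02e-04). Rhox6 was read 13, 10 and 11 times against 0, at least 6.07-fold higher, and did not pass the low-count filter. Without that filter it was called higher (edgeR, adjusted p = 0.00192). The pair share transcript sequence, 20.8% of the 36-base words of Rhox6 and 8.07% of those of Rhox9 occurring in another gene's transcripts (GENCODE M21), so some reads could be assigned to either.

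The expanded Rhox2, Rhox3 and Rhox4 copies held 1, 0 and 7 reads in all. Of the 20 such copies that could be matched to transcripts, 58.5% to 100% (median 81.9%) of the 36-base words occur in another gene, against 0% to 6.13% for the 5 genes analysed above. The counter of reads aligned to more than 1 place is 0 in the 4 files that list it, and the sources used here do not say how such reads were treated. The low counts of these copies therefore cannot be read as a lack of RNA. Rhox1, Rhox10 and Rhox13 share no 36-base word with another gene in that annotation.

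**Figure D4:**
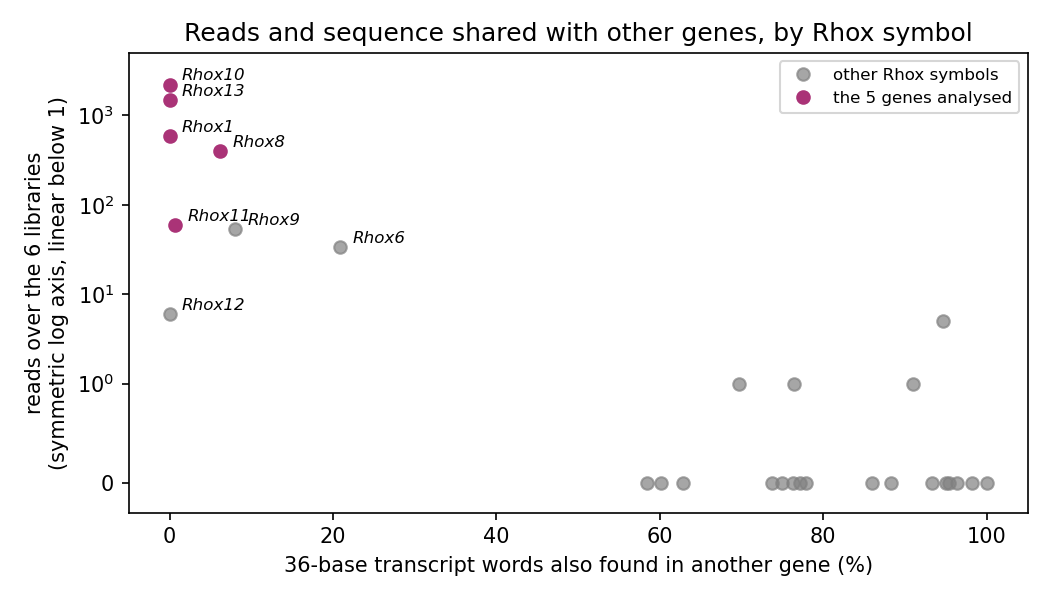
Reads over the 6 libraries (symmetric log axis, linear below 1) against the percent of a gene's 36-base transcript words that also occur in another gene, for each Rhox symbol with a row in the files that matched GENCODE M21. The 5 genes analysed lie at 0% to 6.13% with 59 to 2217 reads, and the Rhox2, Rhox3 and Rhox4 copies at 58.5% and above with at most 5.

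Genes flanking the cluster on the X chromosome went both ways, as did X-linked genes outside the family in general. Of those X-linked genes 53.3% were higher and 26.7% lower, where 75.8% of all genes were called. Of the 5 nearest protein-coding genes outside the family, among those in the files, on each side, 6 were higher, 2 lower, 1 not called and 1 not tested. Zbtb33, a methyl-CpG-binding repressor gene just distal to the cluster, rose by 4.02 ± 0.23, and Rnf113a1 (3.57 ± 0.53), Nkap (2.41 ± 0.31), Lamp2 (1.47 ± 0.25), Cul4b (1.1 ± 0.20) and Ndufa1 (1.09 ± 0.35) were also higher. Fam70a was lower (-4.17 ± 0.64), and Akap14, an anchor protein gene, was read 0 times in Stra8-deficient and 274 times in wild-type libraries. Gm9 was not called (-1.83 ± 1.04; edgeR, adjusted p = 0.143), and Atp1b4 had 2 reads against 0. Among other X-linked or germline homeobox genes, Lhx8 (4.05 ± 0.49) and Nobox (2.37 ± 0.47), both known from oocytes, rose and the X-linked Esx1 fell (-1.42 ± 0.43). Esx1 lost its call when only library size was used, and stood at 1.14 on the Sertoli-list scale.

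The genes with profiles nearest to each Rhox gene over the 6 libraries were found by the root-mean-square difference of centred log2 CPM. For Rhox10 they were Tph1 (0.184), Mobp (0.238) and Alkbh2 (0.347), and for Rhox13 Shisa5 (0.099), Clta (0.113) and Acy3 (0.119). Nearest to Rhox1 were Hrh1 (0.116), Dlk1 (0.171) and Chi3l1 (0.174), and to Rhox8 Adam11 (0.244), Qpct (0.375) and 8030411F24Rik (0.41). Rhox11 lay nearest to B230118H07Rik (0.145), 3830406C13Rik (0.162) and Rnf139 (0.166). Their log2 fold changes were -3.78, -3.66 and -3.57, against -6.19 for Rhox11. A prior count of 2, added before the log, draws up Rhox11 at 0, 0 and 1 reads, so this likeness does not extend to its near-absence. The same holds for the few wild-type reads of Rhox10 and Rhox1 and for Rhox8 in the second Stra8-deficient library. Tph1, Mobp and Alkbh2 had log2 fold changes of 8.59, 6.74 and 6.28, against 6.92 for Rhox10. Hrh1, Dlk1 and Chi3l1 had 5.13, 4.89 and 6.24, against 5.66 for Rhox1. With 6 libraries in 2 genotypes such likeness includes the genotype difference itself.

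**Figure D5:**
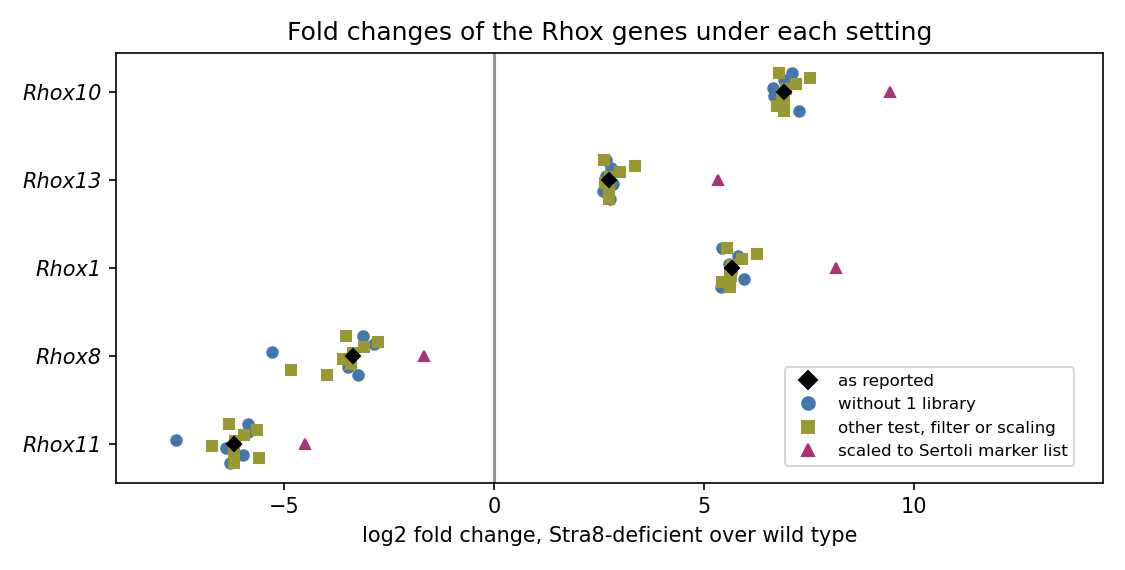
Log2 fold change of each Rhox gene as reported and under the 15 alternative settings: each library left out, other tests, filters and scalings, and scaling to the Sertoli marker list. All points of a gene stay on 1 side of 0; the spread is widest for Rhox8 (-5.28 to -1.68).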

How the data were processed

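Poly(A) RNA of 6 whole testes was sequenced, 3 per genotype. TopHat, HTSeq, edgeR and build mm9 are named in the submitters' processing notes. Their versions, the annotation, the read length and the strand setting were not stated there. The authors deposited raw read counts per gene symbol for each library and 1 table of their own log2 fold changes with p-values. The third Stra8-deficient file lists 23285 symbols and the other 5 files 22055, so the 21786 shared symbols were used; they hold 99.3% to 99.7% of the gene reads. Reads outside genes (20.9% to 34.5% of the counted total) were left out.

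Counts were fitted in R 4.3.3 with edgeR 4.0.16 (TMM factors, filterByExpr, quasi-likelihood F test, Benjamini-Hochberg over 15018 genes, threshold 0.05), without the replicate number. Ratios to marker lists were compared by exact permutation. Counting intervals (95%) and floors (3 counts) cover counting error only. Alternatives used DESeq2 1.42.0, limma 3.58.1 and other scalings and filters. The fit was tested on simulated data in which few genes changed, equally in both directions. That test does not cover a change as broad as the one between these genotypes. Promoters came from RefSeq (5 of the 6 genes are in that table, of which Rhox5 is not shown) and shared words from GENCODE M21 transcripts. The Rhox genes and all lists were chosen with earlier results of these data known. Named genes are the rule's members, other Rhox symbols with at least 10 reads, called genes of the control, downstream and homeobox lists, the 2 largest changes per direction of each cell type list, the 5 flanking genes per side and the 3 nearest profiles. Some genes of these lists are not reported here.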

Additional observations from a re-analysis of the deposited data

How the results depend on the processing

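All 5 Rhox genes kept their direction and call under each of 15 alternatives: over these, log2 fold changes ran from 6.65 to 9.44 for Rhox10, 5.42 to 8.15 for Rhox1, 2.59 to 5.33 for Rhox13, -5.28 to -1.68 for Rhox8 and -7.59 to -4.50 for Rhox11, with largest adjusted p-values of 1.13e-05, 6.45e-05, 1.26e-04, 0.0334 and 3.33e-04. The all-gene median moved from 0.11 to 0.72 (library size only), 0.38 (upper-quartile factors) and 2.73 when scaled to the Sertoli marker list, so the last puts Rhox10 at 9.44, Rhox13 at 5.33 and Rhox8 at -1.68 on a shifted scale. The number of genes called ranged from 10357 to 12303. Of the other Rhox symbols 1 (Rhox9) was called; with no low-count filter and with DESeq2 there were 2, Rhox6 added, and leaving out single libraries gave 1 to 2 (2 without wild-type replicate 1 or 3), since the filter then keeps Rhox6. The mean share of Rhox8 among the Stra8-deficient Rhox reads, 1.19%, was 0.42% without replicate 3 and 1.78% without replicate 2.

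Deviations of same-numbered libraries of the genotypes had correlations of 0.058, 0.08 and -0.04, and those of differently numbered libraries -0.125 to 0.076. With 3 libraries per genotype these values cannot decide whether the numbers pair animals, and the labels do not say so. With a replicate block 11219 genes were called, and Rhox10 was at 6.91, Rhox1 at 5.62, Rhox13 at 2.74, Rhox8 at -3.99 and Rhox11 at -6.19, with 3 called higher and 2 lower. Depth limits Rhox1, Rhox10 and Rhox9 in wild type and Rhox11 in Stra8-deficient testes, where single reads set the fold.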

Other observations

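The protein-coding gene 4930430D24Rik, not a Rhox gene, lies inside the cluster in RefSeq. It was read at 1.503, 1.43 and 1.27 CPM in the Stra8-deficient and 4.52, 7.19 and 6.23 CPM in the wild-type libraries (log2 fold change -2.09 ± 0.36; edgeR, adjusted p = 5.77e-04), and the value was 0.50 on the Sertoli-list scale. Set against the undifferentiated spermatogonia list, Rhox1 had 5.57, 5.39 and 8.26 reads per 1000 list reads in the Stra8-deficient and 1.27, 1.78 and 0.811 in the wild-type libraries (exact two-sided permutation p = 0.1, the smallest that the design can give).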
